A study of Mus musculus with 12 samples.

Results

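The Hedgehog pathway genes examined here are 9 genes taken by name from the deposited count table: the co-receptors Boc and Gas1, the receptor Ptch1, the ligand-binding antagonist Hhip, the signal transducer Smo, the inhibitor Sufu and the transcription factors Gli1, Gli2 and Gli3. All 9 were found among the 35602 symbols of the table, and all 9 were among the 15708 genes left by the filter on low counts. The RNA came from mouse embryonic fibroblasts (MEFs), mesenchymal cells taken from embryos and kept in culture in medium with serum. The 12 libraries form 4 groups of 3, namely Ezh2a mutant, wild-type littermates of the Ezh2a line, Ezh2b mutant, and wild-type littermates of the Ezh2b line. The series title speaks of EZH2 isoforms that arise at cryptic splice sites. The EZH2 protein is the methyltransferase of Polycomb repressive complex 2, which places the repressive mark H3K27me3 on chromatin. The labels name no added Hedgehog ligand or agonist, no embryonic age, no strain and no further allele. They do not say whether libraries of a group came from separate embryos, so the p-values measure the spread between these libraries, which may be technical.

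Hedgehog proteins are secreted signals that bind PTCH1 at the cell surface. BOC, GAS1 and CDON help the ligand bind, whereas HHIP binds it and keeps it from the receptor. Without ligand PTCH1 holds SMO inactive, and SUFU and protein kinase A keep GLI2 and GLI3 restrained, GLI3 mostly as a truncated repressor. With ligand SMO enters the primary cilium, full-length GLI proteins activate transcription, and Gli1, Ptch1 and Hhip are themselves transcribed as feedback targets. Mesenchymal cells of the embryo are a main receiving tissue of the pathway, and MEFs are much used to study it.

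Total counts were 28811482 to 54070380 per library. Ezh2b wild-type replicate 3 stood apart from its group. It was the deepest library, its mitochondrial share was 2.13%, where its group mates had 1.76% and 1.72%, and its counts differed more from those of its group mates (mean chi-square per gene 11.3 and 12.4) than in any other pair within a group (at most 4.67). The same number of members was called without it in each comparison that uses it, and the log2 ratios are given with the counts of members. Levels are CPM, counts per 1000000 counts after scaling by trimmed mean of M-values (TMM). Differences are log2 ratios (log2 fold changes), mutant over wild type, given first in brackets and followed by their standard error (SE), and "rose" and "fell" are kept for an adjusted p under 0.05 in edgeR's quasi-likelihood test. Ezh2 had 14.2, 15.2 and 14.2 CPM in the Ezh2a mutant libraries, against 30.5, 30.4 and 30.1 CPM in their wild types (-1.07, SE 0.05, adjusted p = 3.38e-11). In the Ezh2b set it had 35.1 ± 1.43 CPM in the mutant and 35.0 ± 1.02 CPM in the wild type (SD, n = 3 each; 0.0038, SE 0.05, adjusted p = 0.969). A count covers all isoforms of a gene. All 12 fibroblast markers listed were measured, with a summed level of 47442 to 49019 CPM in the Ezh2a mutant, 46470 to 47636 in its wild type, 42088 to 44183 in the Ezh2b mutant and 39513 to 41900 in its wild type. Most of this sum was Col1a1, Col1a2 and Col3a1. Of the 12 markers, 5 rose and 1 fell in the Ezh2a mutant, where 19.8% of all tested genes were called. In the Ezh2b mutant 8 rose and 3 fell, where 26.1% of all tested genes were called. The myogenic genes Myod1, Myf5 and Myh3, the endothelial gene Cldn5 and the epithelial gene Esrp1 had 0 counts in all 12 libraries. Other markers of the same cell types were detected, with Des at 108 CPM, Kdr at 11.6 and Krt18 at 9.88 in the Ezh2a wild type.

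The 3 ligand genes were at or near 0. Shh had 0 to 2 counts in a library, Ihh 0 to 4 and Dhh 0 to 12, and none of them passed the filter. A difference in ligand transcripts between the groups was not detectable at this depth.

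The receiving side of the pathway was transcribed in all groups. Per kilobase of exon, Gas1 had the highest level of the 9 genes throughout, at 76.3 ± 5.07 CPM per kilobase in the Ezh2a mutant, 72.3 ± 2.45 in its wild type, 56.8 ± 4.40 in the Ezh2b mutant and 93.5 ± 18.1 in its wild type (SD, n = 3). Smo, Boc, Gli3, Sufu, Gli2 and Ptch1 followed in that order in each group. In the Ezh2b mutant, for example, Smo had 21.9 ± 0.602, Boc 12.6 ± 0.345, Gli3 10.6 ± 0.824 and Ptch1 1.36 ± 0.0764 CPM per kilobase. Sufu and Gli2 lay within their spread there, at 5.07 ± 0.204 and 5.06 ± 0.257 CPM per kilobase, and not in the Ezh2b wild type, at 4.94 ± 0.224 and 4.24 ± 0.364. Gli1 and Hhip were the lowest, at 0.288 ± 0.117 and 0.221 ± 0.00505 CPM per kilobase in the Ezh2a mutant, and 0.197 ± 0.0403 and 0.0693 ± 0.00819 in its wild type. Only these last genes changed places between groups, with Hhip above Gli1 in the Ezh2b mutant (0.284 ± 0.0133 and 0.147 ± 0.0172) and below it in the Ezh2b wild type (0.134 ± 0.0253 and 0.197 ± 0.0409). Lengths are unions of all annotated exons, 14185 bases over 10 transcripts for Ptch1, so a gene with many alternative exons is given too low a level per length.

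**Figure D1:**
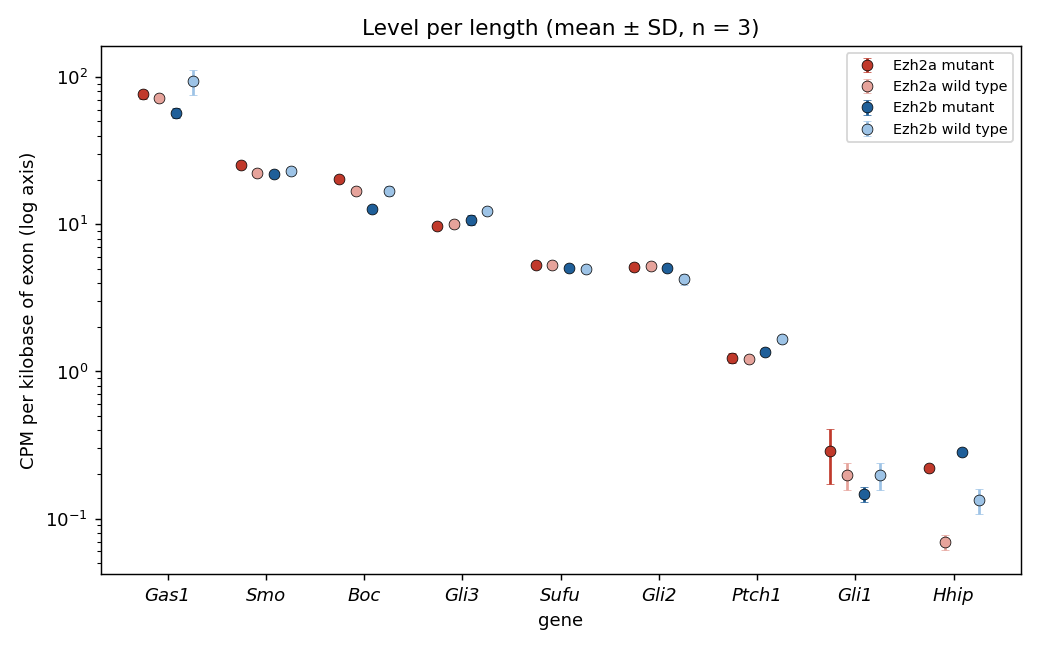
Level of each gene in CPM per kilobase of exon on a log axis, by group (points are means and bars SD of 3 libraries). Gas1 lies at the top in all 4 groups, and Gli1 and Hhip lie below the other 7 genes.

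Hhip rose in both mutants and had the largest log2 ratio of the 9 genes in each. The gene (GRCm38 chromosome 8, 79965851 to 80058006, minus strand) encodes a membrane glycoprotein that sequesters Hedgehog ligands. It had 1.95, 2.01 and 2.05 CPM in the Ezh2a mutant libraries, against 0.715, 0.581 and 0.591 CPM in their wild types. In the Ezh2b set it had 2.45, 2.69 and 2.60 CPM in the mutant libraries, against 1.48, 1.10 and 1.06 CPM in the wild types. All mutant libraries lay above all wild-type libraries of their set. The rise was 3.15-fold in the Ezh2a mutant (1.65, SE 0.20, adjusted p = 5.88e-06) and 2.15-fold in the Ezh2b mutant (1.11, SE 0.17, adjusted p = 6.14e-05). The Ezh2b effect minus the Ezh2a effect was -0.55, SE 0.27, adjusted p = 0.152, so the effects were not shown to differ. The reads behind these values were few, 60 to 68 counts per Ezh2a mutant library and 18 to 28 per wild type, and 69 to 123 counts per Ezh2b mutant library and 32 to 58 per wild type. A non-coding gene on the other strand, Gm27820, overlaps 175 bases of Hhip, exon sequence included, and was not analysed here. By level the groups stood in the order Ezh2b mutant, Ezh2a mutant, Ezh2b wild type and Ezh2a wild type, and no neighbours in this order overlapped.

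The sequences before the annotated starts of Hhip and Ptch1 are shown because both are textbook feedback targets, of which Hhip rose in both mutants and Ptch1 in neither, and because Polycomb repressive complex 2 is known to occupy CpG-rich promoters. Each is the 250 bases upstream of the RefSeq start on GRCm38.p6, 5′ to 3′ on the minus strand, with every CpG in capitals. The Hhip stretch is chr8:80058009-80058258 and the Ptch1 stretch is chr13:63565736-63565985. Ptch1 has alternative starts, and this stretch lies before the RefSeq start, which is 7863 bases inside the gene's outermost GENCODE start.
Hhip: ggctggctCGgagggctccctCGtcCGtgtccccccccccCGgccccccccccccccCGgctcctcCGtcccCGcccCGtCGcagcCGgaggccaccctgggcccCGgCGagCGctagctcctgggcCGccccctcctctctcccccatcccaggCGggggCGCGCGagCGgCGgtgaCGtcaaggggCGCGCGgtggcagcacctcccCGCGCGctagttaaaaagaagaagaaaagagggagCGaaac
Ptch1: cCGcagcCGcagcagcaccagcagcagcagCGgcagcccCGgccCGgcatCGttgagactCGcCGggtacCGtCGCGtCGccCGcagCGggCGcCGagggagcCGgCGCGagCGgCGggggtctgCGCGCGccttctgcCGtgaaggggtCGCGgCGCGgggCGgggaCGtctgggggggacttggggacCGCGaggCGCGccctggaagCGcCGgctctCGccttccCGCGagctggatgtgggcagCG
The Hhip stretch held 28 CpGs and the Ptch1 stretch 41. Over the whole RefSeq windows of 300 bases, which add 50 bases after the start, Hhip had 30 CpGs and Ptch1 47, and 88.3% and 98.6% of the 32851 windows in the table had fewer. The other windows held 39 CpGs for Gli3, 28 for Gli2, 17 for Gas1, 17 for Smo and 12 for Sufu, against a median of 7 over the table. Boc and Gli1 had no window to match. The consensus site of GLI proteins, GACCACCCA, was searched on both strands and overlaps no other motif searched. None of the 7 windows held it, and 0.253% of all windows did. That says only that these letters are not in this window. Polycomb occupancy and H3K27me3 were not measured here, and their part in the Hhip and Ptch1 values was not tested.

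Ptch1 (chromosome 13, 63508328 to 63573598, minus strand), the receptor and itself a feedback target, had 18.0, 15.9 and 18.7 CPM in the Ezh2a mutant libraries, against 18.2, 16.5 and 17.4 CPM in their wild types. These ranges overlapped, and the log2 ratio was 0.02, SE 0.07, adjusted p = 0.912. In the Ezh2b mutant it fell, with 18.1, 20.2 and 19.6 CPM in the mutant libraries, against 23.8, 24.5 and 22.0 CPM in the wild types. All Ezh2b mutant libraries lay below their wild types (-0.27, SE 0.07, adjusted p = 0.00603). The Ezh2b effect minus the Ezh2a effect was -0.28, SE 0.10, adjusted p = 0.0405, and this call was lost without any 1 of 8 of the 12 libraries (adjusted p = 0.0584 to 0.118).

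Gli1 (chromosome 10, 127329882 to 127341974, minus strand), the GLI factor whose transcription depends on the pathway itself, was at about 1 CPM in most libraries and passed the test in neither mutant. It had 1.15, 2.11 and 1.05 CPM in the Ezh2a mutant libraries, against 0.766, 1.16 and 1.03 CPM in their wild types. The second Ezh2a mutant library stood above all others, and the groups overlapped. The log2 ratio was 0.55, SE 0.28, adjusted p = 0.193, and it was 0.18 without Ezh2a mutant replicate 2. In Ezh2b Gli1 had 0.711, 0.832 and 0.666 CPM in the mutant libraries, against 1.06, 1.14 and 0.750 CPM in the wild types (-0.36, SE 0.30, adjusted p = 0.421). These groups overlapped too. With 20 to 63 counts per library, the errors were several times those of the other members apart from Hhip. The Ezh2b effect minus the Ezh2a effect was -0.91, SE 0.41, adjusted p = 0.112. The 3′ end of Gli1 overlaps the gene Arhgap9 on the other strand by 62 bases, and the library protocol names no step that marks strand, so reads of the overlap cannot be told apart. Arhgap9 had 1.47 ± 0.102 CPM in the Ezh2b mutant and 0.298 ± 0.0823 CPM in its wild type, the opposite order to Gli1, and 4.35 ± 0.422 CPM in the Ezh2a mutant and 4.19 ± 0.870 CPM in its wild type (SD, n = 3 each). Its part in the Gli1 counts was not tested. An antisense gene, Gm47200, overlaps 9584 bases of Gli1 and was not analysed here.

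**Figure D2:**
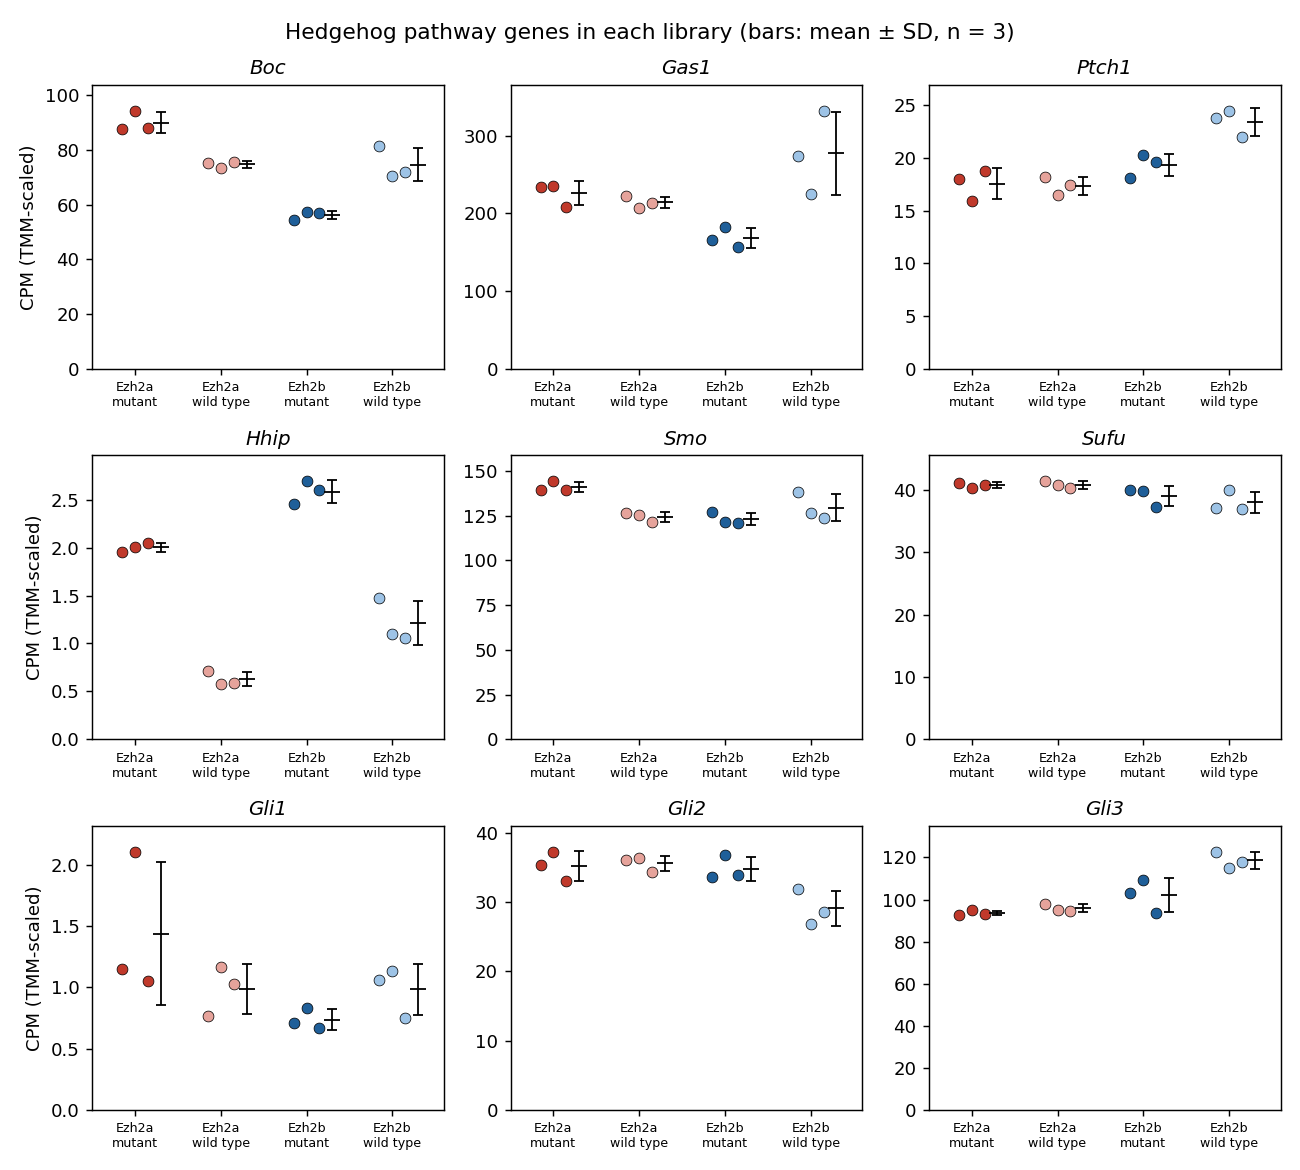
CPM of each gene in every library, with mean and SD of 3 libraries beside the points, and the y axis from 0 in each panel. Hhip is higher in both mutants than in their wild types, Boc is higher in the Ezh2a mutant and lower in the Ezh2b mutant, and the Sufu groups lie close together.

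Of the co-receptors, both fell in the Ezh2b mutant, and Boc alone of the 9 genes was called in opposite directions in the mutants, as were 5.96% of all tested genes. Boc (chromosome 16, 44485049 to 44558897, minus strand) encodes a cell-surface protein of the immunoglobulin superfamily. It had 87.8, 94.4 and 88.1 CPM in the Ezh2a mutant libraries, against 75.3, 73.3 and 75.8 CPM in their wild types. In the Ezh2b set it had 54.5, 57.3 and 57.0 CPM in the mutant libraries, against 81.7, 70.6 and 71.9 CPM in the wild types. The wild types of both sets were at a like level, with the Ezh2a mutant libraries above and the Ezh2b mutant libraries below, and neither mutant overlapped its wild type. The log2 ratio was 0.27, SE 0.05, adjusted p = 0.000518 for Ezh2a and -0.41, SE 0.05, adjusted p = 3.06e-06 for Ezh2b. The Ezh2b effect minus the Ezh2a effect was -0.67, SE 0.07, adjusted p = 3.95e-07.

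Gas1 (chromosome 13, 60174405 to 60177365, minus strand) encodes a lipid-anchored co-receptor first described as a growth-arrest protein. In the Ezh2b set it had 166, 182 and 156 CPM in the mutant libraries, against 274, 225 and 332 CPM in the wild types. These wild types had the widest spread of the 4 groups, yet all mutant libraries lay below them (-0.72, SE 0.09, adjusted p = 4.79e-06). Without Ezh2b wild-type replicate 3, the deepest and highest library, the log2 ratio was -0.56. In the Ezh2a set Gas1 had 234, 235 and 209 CPM in the mutant libraries, against 222, 207 and 214 CPM in the wild types. The groups overlapped (0.08, SE 0.09, adjusted p = 0.63). The Ezh2b effect minus the Ezh2a effect was -0.80, SE 0.13, adjusted p = 9.1e-05. A lincRNA on the other strand, Gm48488, overlaps 684 bases of Gas1 and was not analysed here.

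Smo (chromosome 6, 29735503 to 29761365, plus strand), the membrane protein that carries the signal inward, rose slightly in the Ezh2a mutant. It had 139, 144 and 139 CPM in the Ezh2a mutant libraries, against 127, 125 and 121 CPM in their wild types, a 1.13-fold rise without overlap (0.18, SE 0.04, adjusted p = 0.00368). The Ezh2b mutant libraries had 127, 121 and 121 CPM, against 138, 127 and 124 CPM in the wild types. These overlapped (-0.07, SE 0.04, adjusted p = 0.216), and the Ezh2b effect minus the Ezh2a effect was -0.25, SE 0.06, adjusted p = 0.00262.

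Sufu (chromosome 19, 46396896 to 46488804, plus strand), which binds and restrains GLI proteins, was called in neither mutant. It had 41.2, 40.3 and 40.8 CPM in the Ezh2a mutant libraries, against 41.4, 40.8 and 40.3 CPM in their wild types, and the log2 ratio was -0.0016, SE 0.05, adjusted p = 0.986. For Ezh2b the values were 40.0, 39.9 and 37.2 CPM in the mutant libraries, against 37.1, 40.0 and 36.9 CPM in the wild types (0.04, SE 0.05, adjusted p = 0.563). The groups overlapped in both sets.

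Gli2 and Gli3, the factors that first receive the signal, were called in the Ezh2b mutant in opposite directions and in the Ezh2a mutant not at all. Gli2 (chromosome 1, 118834132 to 119053619, minus strand), known mainly as an activator, had 33.6, 36.8 and 33.9 CPM in the Ezh2b mutant libraries, against 31.8, 26.9 and 28.6 CPM in the wild types. It rose without overlap (0.26, SE 0.06, adjusted p = 0.00313). Gli3 (chromosome 13, 15463235 to 15730026, plus strand), known mainly as the source of the repressor, had 103, 109 and 93.7 CPM in the Ezh2b mutant libraries, against 123, 115 and 118 CPM in the wild types. It fell without overlap (-0.21, SE 0.05, adjusted p = 0.00133). In the Ezh2a set Gli2 had 35.4, 37.3 and 33.0 CPM in the mutant libraries, against 36.1, 36.4 and 34.4 CPM in the wild types (-0.02, SE 0.06, adjusted p = 0.882). Gli3 had 92.8, 94.9 and 93.1 CPM in the Ezh2a mutant libraries, against 97.9, 95.2 and 94.3 CPM in the wild types (-0.03, SE 0.05, adjusted p = 0.673). Both overlapped.

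The Ezh2b effect minus the Ezh2a effect was 0.28, SE 0.09, adjusted p = 0.0212 for Gli2 and -0.18, SE 0.07, adjusted p = 0.0485 for Gli3. The call for Gli2 was lost without any 1 of 4 libraries (adjusted p = 0.0513 to 0.0697) and with unscaled library totals (0.088). The call for Gli3 was lost without any 1 of 9 libraries (0.0555 to 0.141), with counts divided by 2 (0.0511), with DESeq2 size factors (0.0601) and with DESeq2 (0.0574). The ratio of Gli3 to Gli2 counts was 3.08, 2.97 and 2.77 in the Ezh2b mutant libraries, against 3.86, 4.28 and 4.12 in their wild types. It was 2.62, 2.55 and 2.82 in the Ezh2a mutant libraries, against 2.71, 2.62 and 2.74 in theirs. The Ezh2b mutant ratios lay below those of their wild types, and the Ezh2a groups overlapped. This ratio was chosen after the values were seen and compares read counts, not proteins. Gm6556, a non-coding gene on the other strand, overlaps 502 bases of Gli3 and had 2.29 ± 0.194 CPM in the Ezh2b mutant and 2.75 ± 0.324 CPM in its wild type (SD, n = 3 each), far below Gli3.

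**Figure D3:**
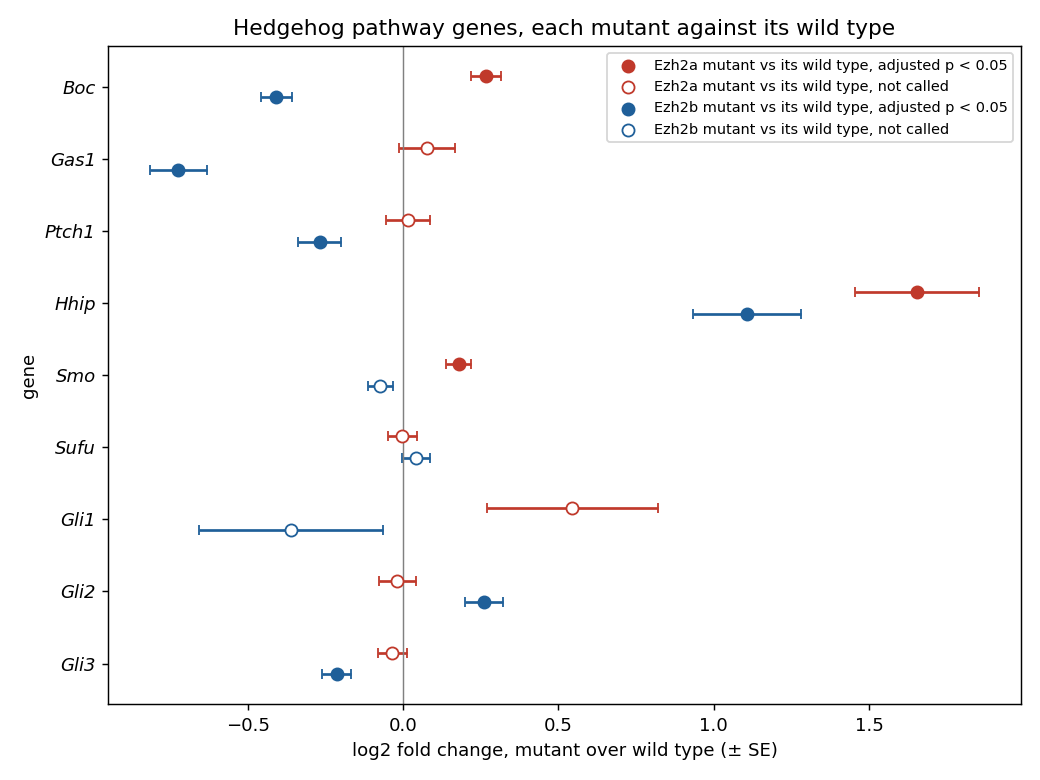
Log2 ratio of each gene with its SE, mutant over wild type, for the Ezh2a set and the Ezh2b set (filled points have an adjusted p under 0.05). Hhip is the only gene filled on the right in both sets, and Boc is filled on opposite sides.

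Counted together, 3 of the 9 genes rose in the Ezh2a mutant (Hhip, Boc and Smo) and none fell, so that 33.3% were called, against 19.8% of all tested genes (9.61% higher and 10.2% lower). In the Ezh2b mutant 2 rose (Hhip and Gli2) and 4 fell (Gas1, Boc, Ptch1 and Gli3), so that 66.7% were called, against 26.1% of all tested genes (14.0% higher and 12.1% lower). With unscaled library totals the higher genes made up 64.9% of all calls in Ezh2a, against 48.4% with TMM, 43.1% in Ezh2b, against 53.6%, and 38.2% for the difference between effects, against 55.3%. Without Ezh2b wild-type replicate 3 the same number of members was called in Ezh2b, at log2 ratios of 1.00 for Hhip, 0.25 for Gli2, -0.56 for Gas1, -0.43 for Boc, -0.31 for Ptch1 and -0.21 for Gli3. The libraries of mutant and wild type did not overlap for those 3 genes in Ezh2a and those 6 in Ezh2b, as was the case for 37.6% and 37.2% of all genes. The median log2 ratio of the 9 genes was 0.08 in Ezh2a, against -0.0015 over all genes, and -0.21 in Ezh2b, against -0.0056. The median size of the log2 ratio was 0.08 in Ezh2a, against 0.11 over all genes, and 0.27 in Ezh2b, against 0.13. The effects differed in 6 of the 9 genes, 1 more positive in Ezh2b and 5 more negative, against 26.5% of all genes (14.7% and 11.9%). The count of 6 was 3 without Ezh2a mutant replicate 3 or without Ezh2a wild-type replicate 2, and Boc, Gas1 and Smo then made it up.

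Markers of several other cell types moved with these comparisons, although the macrophage and neural sums overlapped in the Ezh2a set. All 16 macrophage markers rose in the Ezh2b mutant, where they summed to 509 to 549 CPM, against 115 to 125 in its wild type. They summed to 1734 to 1857 CPM in the Ezh2a mutant and 1818 to 1872 in its wild type (3 rose, 3 fell). Cartilage markers summed to 205 to 222 CPM in the Ezh2a mutant and 44.2 to 46.5 in its wild type (9 of 11 rose, 0 fell), and to 31.8 to 34.5 CPM in the Ezh2b mutant and 46.7 to 51.3 in its wild type (2 rose, 4 fell). Col2a1 made up most of the Ezh2a mutant sum, at 127 CPM, against 1.15 in the wild type. In the Ezh2b set Comp had 4.83 CPM in the mutant and 18.6 in the wild type, whereas Acan had 2.90 and 0.488. Mesothelial markers summed to 63.9 to 68.9 CPM in the Ezh2a mutant and 103 to 109 in its wild type (1 of 8 rose, 7 fell), and to 48.9 to 50.4 CPM in the Ezh2b mutant and 33.7 to 40.2 in its wild type (7 rose, 1 fell). Skeletal muscle markers summed to 43.0 to 45.9 CPM in the Ezh2a mutant and 118 to 127 in its wild type, and to 60.1 to 66.3 CPM in the Ezh2b mutant and 32.0 to 40.6 in its wild type. Nearly all of this sum was Des and Acta1. Des had 35.1 CPM in the Ezh2a mutant, 108 in its wild type, 37.1 in the Ezh2b mutant and 14.6 in its wild type. Of the 4 muscle markers tested, 0 rose and 2 fell in Ezh2a, and 1 rose and 0 fell in Ezh2b. Epithelial markers summed to 2.29 to 2.61 CPM in the Ezh2a mutant and 14.1 to 15.5 in its wild type, and to 2.66 to 3.57 CPM in the Ezh2b mutant and 1.57 to 1.81 in its wild type. Krt18 and Krt8 made up most of the epithelial sum, at 9.88 and 3.04 CPM in the Ezh2a wild type. Among the 4 tested, 0 rose and 2 fell in Ezh2a, and 2 rose and 0 fell in Ezh2b. Endothelial markers summed to 13.6 to 15.8 CPM in the Ezh2a mutant and 19.0 to 21.5 in its wild type, and to 10.6 to 11.4 CPM in the Ezh2b mutant and 18.9 to 20.7 in its wild type. Here 4 were tested, of which 1 rose and 1 fell in Ezh2a, and 1 rose and 2 fell in Ezh2b. Neural markers summed to 46.3 to 49.8 CPM in the Ezh2a mutant and 44.5 to 47.7 in its wild type, and to 58.9 to 61.9 CPM in the Ezh2b mutant and 39.2 to 42.9 in its wild type. Most of this sum was Tubb3 and Stmn2. Tubb3 had 39.1 CPM in the Ezh2b mutant and 18.2 in its wild type, whereas Stmn2 had 17.7 and 20.5. Of the 6 neural markers tested, 0 rose and 1 fell in Ezh2a, and 2 rose and 0 fell in Ezh2b. The part of these cells in the Hedgehog results was not tested. In cultures read in bulk, fewer cells of a type and less RNA per cell cannot be told apart.

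The wild types differed from each other in 5 of the 9 genes, 4 higher and 1 lower in Ezh2b, against 42.3% of all genes (20.4% higher and 21.8% lower). Hhip was at 1.21 ± 0.230 CPM in the Ezh2b wild type and 0.629 ± 0.0744 CPM in the Ezh2a wild type (log2 ratio 0.92, SE 0.21, adjusted p = 0.00153). Ptch1 was at 23.4 ± 1.29 and 17.4 ± 0.853 CPM (0.42, SE 0.07, adjusted p = 5.46e-05), Gas1 at 277 ± 53.6 and 214 ± 7.25 CPM (0.37, SE 0.09, adjusted p = 0.00243) and Gli3 at 119 ± 3.88 and 95.8 ± 1.87 CPM (0.31, SE 0.05, adjusted p = 1.86e-05). Gli2 was lower, at 29.1 ± 2.50 CPM in the Ezh2b wild type and 35.6 ± 1.08 CPM in the Ezh2a wild type (-0.29, SE 0.06, adjusted p = 0.000656; SD, n = 3 each). Without Ezh2b wild-type replicate 3 the Gas1 log2 ratio was 0.22 (adjusted p = 0.013). Boc, Smo, Sufu and Gli1 did not pass, and the libraries did not overlap for 6 of the 9 genes, against 48.9% of all genes. For Ptch1 and Gli3 the Ezh2b wild type was the highest of the 4 groups, and for Gli2 the lowest, without overlap with the next group. Line, litter and any batch cannot be told apart in this comparison.

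Beyond the 9 genes, 77 others with a known place in the pathway were looked up by role, and 72 were tested. In the Ezh2a mutant 11 rose and 10 fell (15 and 6 with unscaled library totals), which is 29.2%, beside the 19.8% of all tested genes. In the Ezh2b mutant 18 rose and 12 fell, which is 41.7%, beside 26.1%. Of 12 cilium transport genes none was called in Ezh2a, and in Ezh2b 1 rose and 1 fell. Of 9 regulators of Smo none was called in Ezh2a, and in Ezh2b 2 rose and 1 fell. In the protein kinase A arm, 1 of 8 fell in Ezh2a, and 2 rose and 2 fell in Ezh2b. Among 10 genes of GLI processing, 2 rose and 2 fell in Ezh2a, and 2 rose in Ezh2b.

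Among the other receptors and co-receptors, Gpc3, a glypican known to compete for Hedgehog ligand, moved in opposite directions. It rose to 45.2 ± 2.47 CPM in the Ezh2a mutant, against 25.4 ± 1.46 CPM in its wild type (0.83, SE 0.06, adjusted p = 1.38e-08), and fell to 43.3 ± 4.14 CPM in the Ezh2b mutant, against 60.2 ± 0.575 CPM in its wild type (-0.47, SE 0.06, adjusted p = 3.99e-06; SD, n = 3 each). Cdon, the relative of Boc, was called in the same directions as Boc. It had 291 ± 7.68 CPM in the Ezh2a mutant and 258 ± 2.38 CPM in its wild type (0.17, SE 0.05, adjusted p = 0.0111), and 192 ± 13.0 CPM in the Ezh2b mutant and 212 ± 12.7 CPM in its wild type (-0.14, SE 0.05, adjusted p = 0.0315). The Ezh2b libraries overlapped, and the fall was lost without Ezh2b mutant replicate 1 or 3 or Ezh2b wild-type replicate 1 (adjusted p = 0.152 to 0.176) and with the 6 Ezh2b libraries fitted alone (0.0915). Lrp2, the endocytic receptor megalin, rose to 9.09 ± 0.784 CPM in the Ezh2b mutant, against 2.53 ± 0.113 CPM in its wild type (1.84, SE 0.11, adjusted p = 8.49e-11), and its log2 ratio in Ezh2a was 0.16, SE 0.09, adjusted p = 0.27. In the Ezh2a set Lrp2 had 9.45 ± 0.608 CPM in the mutant and 8.47 ± 0.624 CPM in the wild type, so the Ezh2b wild type was the low group.

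Of 5 genes that prepare or release ligand, 3 rose in the Ezh2a mutant and 1 in the Ezh2b mutant, against 9.61% and 14.0% of all tested genes. Disp1, which exports lipid-modified Hedgehog, had 54.0 ± 2.26 CPM in the Ezh2a mutant and 44.4 ± 1.73 CPM in its wild type (0.28, SE 0.07, adjusted p = 0.00561). Scube3, one of the secreted Scube proteins that carry ligand away, had 2.57 ± 0.196 CPM in the Ezh2a mutant and 1.25 ± 0.216 CPM in its wild type (1.05, SE 0.18, adjusted p = 0.000357). Its relative Scube1 rose in Ezh2b, with 2.38, 1.95 and 1.74 CPM in the mutant libraries, against 1.51, 0.344 and 0.695 CPM in the wild types (1.26, SE 0.30, adjusted p = 0.00348). Its log2 ratio was 0.97 to 1.84 without single libraries, with 1.84 reached without Ezh2b wild-type replicate 1. The adjusted p was at most 0.0241 over all alternative runs. Scube1 had 10 to 89 counts per Ezh2b library, and the Ezh2b wild type was below the Ezh2a wild type (-1.66, SE 0.29, adjusted p = 0.000118).

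Among intracellular components, Prkar2a, a regulatory subunit of protein kinase A, fell in both mutants (-0.32, SE 0.05, adjusted p = 0.000133 for Ezh2a and -0.18, SE 0.05, adjusted p = 0.00687 for Ezh2b). The fall in Ezh2b was lost without Ezh2b mutant replicate 2 or Ezh2b wild-type replicate 2 (adjusted p = 0.0512 to 0.0771). Spop, an adaptor for the degradation of GLI proteins, fell in Ezh2a (-0.18, SE 0.04, adjusted p = 0.00162) and rose in Ezh2b (0.16, SE 0.04, adjusted p = 0.00301). Kif7, the ciliary kinesin that regulates GLI processing, rose in Ezh2a (0.27, SE 0.07, adjusted p = 0.00971), a call lost without Ezh2a mutant replicate 2 (0.0639). Arrb2, a beta-arrestin, rose in Ezh2b (0.40, SE 0.07, adjusted p = 0.000189), and Dync2h1, the motor of retrograde ciliary transport, fell there (-0.27, SE 0.05, adjusted p = 0.000315).

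Reported targets moved both ways. Of 24 tested, 4 rose and 7 fell in Ezh2a, with a median log2 ratio of -0.10, and 8 rose and 6 fell in Ezh2b, with a median of 0.18. These are 45.8% and 58.3% called, against 19.8% and 26.1% of all tested genes. Foxd1, a forkhead factor of mesenchyme, rose to 7.83 ± 0.398 CPM in the Ezh2a mutant, against 2.01 ± 0.160 CPM in its wild type (1.96, SE 0.15, adjusted p = 1.92e-08). Foxf1, another forkhead factor, fell to 1.03 ± 0.171 CPM in the Ezh2a mutant, against 2.76 ± 0.316 CPM in its wild type (-1.42, SE 0.18, adjusted p = 9.15e-06). Igfbp6, which binds insulin-like growth factors, fell in Ezh2a (-0.65, SE 0.04, adjusted p = 2.6e-09) and rose in Ezh2b (0.26, SE 0.05, adjusted p = 0.000161). Hand2, a limb mesenchyme factor, rose in Ezh2a (0.53, SE 0.14, adjusted p = 0.0122, lost without Ezh2a mutant replicate 2 at 0.0688) and fell in Ezh2b (-0.99, SE 0.14, adjusted p = 2.38e-05). Cntfr, a cytokine receptor subunit, fell in Ezh2a (-0.60, SE 0.12, adjusted p = 0.00133) and rose to 4.11 ± 0.127 CPM in the Ezh2b mutant, against 0.968 ± 0.0801 CPM in its wild type (2.09, SE 0.14, adjusted p = 1.11e-09; SD, n = 3 each). In the Ezh2a set Cntfr had 3.48 ± 0.390 CPM in the mutant and 5.26 ± 0.349 CPM in the wild type. In Ezh2b the anti-apoptotic gene Bcl2 (0.43, SE 0.08, adjusted p = 0.000243) and the Wnt antagonist Sfrp1 (0.43, SE 0.05, adjusted p = 2.21e-06) rose, and Sfrp1 rose in Ezh2a too (0.17, SE 0.05, adjusted p = 0.0197). The cyclin D1 gene Ccnd1 (-0.39, SE 0.04, adjusted p = 1.31e-07) and the forkhead gene Foxc2 (-0.41, SE 0.10, adjusted p = 0.00518) fell in Ezh2b. Snai1, which represses epithelial genes, fell in Ezh2a (-0.15, SE 0.05, adjusted p = 0.0315), a call lost without any 1 of 5 of the 6 libraries (0.0657 to 0.157), and it fell in Ezh2b (-0.16, SE 0.05, adjusted p = 0.0192). The Ezh2a call was also lost with DESeq2 (0.0599), no filter beyond 1 count (0.0866) and unscaled library totals (0.113).

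Of the 72 genes, 13 were called in both mutants (18.1%, against 9.59% of all tested genes). Of these, 9 moved in opposite directions (Cdon, Gpc3, Spop, Dyrk2, Igfbp6, Hand2, Mycn, Ccnd1 and Cntfr) and 4 in the same one (Prkar2a, Foxf2, Snai1 and Sfrp1). The share in opposite directions was 69.2%, close to the 62.2% among all genes called in both mutants. Of the genes in opposite directions, all but Dyrk2 also differed between the wild types (adjusted p of 0.0012 or less), as did 42.3% of all tested genes. The log2 ratios, Ezh2b wild type over Ezh2a wild type, were -2.45 for Cntfr, -1.39 for Mycn, 1.24 for Gpc3 and 0.88 for Ccnd1. They were -0.81 for Igfbp6, 0.67 for Hand2, -0.29 for Cdon and -0.18 for Spop. Except for Cdon, these signs were opposite to those of the Ezh2b effects. Foxf2, a forkhead gene, fell in both (-0.90, SE 0.20, adjusted p = 0.00257 for Ezh2a and -1.16, SE 0.19, adjusted p = 0.000116 for Ezh2b), with 28 to 109 counts per library. The separate calls for Dyrk2 were lost without any 1 of 3 libraries in Ezh2a (0.0601 to 0.0787) and of 3 in Ezh2b (0.102 to 0.168). Those for Mycn, a transcription factor of growth, were lost without any 1 of 4 libraries in Ezh2a (0.0835 to 0.189) and of 2 in Ezh2b (0.0865 to 0.0898), and the rise of Ccnd1 in Ezh2a (0.13, SE 0.04, adjusted p = 0.0175) without any 1 of 2 (0.0764 to 0.111).

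**Figure D4:**
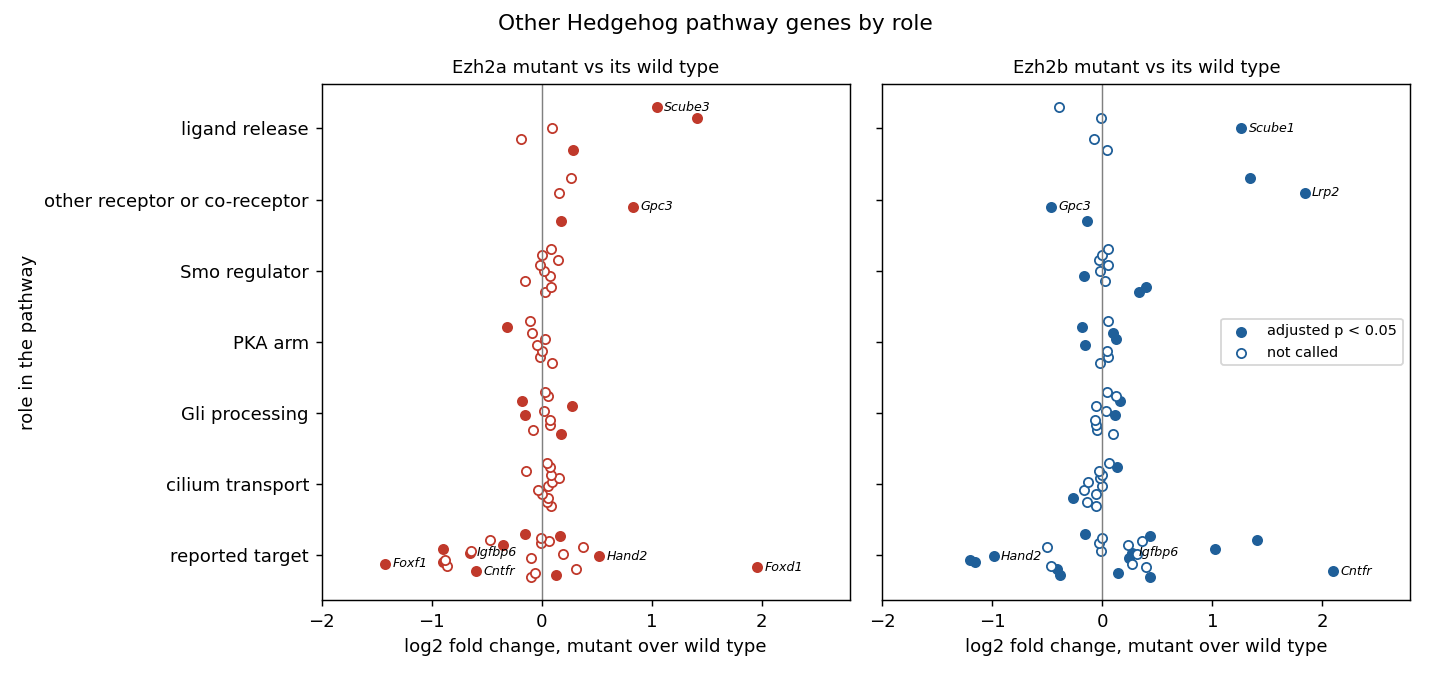
Log2 ratio, mutant over wild type, of the 72 other pathway genes by role, in the Ezh2a set and the Ezh2b set (filled points have an adjusted p under 0.05). Reported targets spread to both sides of 0 in both sets, and none of the 12 cilium transport genes is filled in Ezh2a.

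The genes whose pattern over the 4 group means was most like that of a feedback target were sought among 11742 genes that averaged a log2 CPM of 1 or more, by the Euclidean distance between centred log2 CPM. For Ptch1 these were Map2k3, Alg13 and Cks2, at distances of 0.0274, 0.0298 and 0.0321 log2 units, each highest in the Ezh2b wild type. For Gli1 they were Socs2, Igsf10 and Tmod2, at 0.0363, 0.0645 and 0.0649, each highest in the Ezh2a mutant and lowest in the Ezh2b mutant, an order in which the Gli1 groups themselves overlapped. For Hhip they were C1ql3, Fgf13 and Npr3, at 0.694, 0.699 and 0.770. These distances were far larger than those for Ptch1 and Gli1, so none of the genes searched matched Hhip closely. C1ql3, like Hhip, was highest in the Ezh2b mutant, whereas Fgf13 and Npr3 were highest in the Ezh2a mutant. Hhip and Gli1 themselves averaged a log2 CPM of 0.73 and 0.09, below the level asked of the genes searched.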

How the data were processed

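The authors deposited raw counts, 1 column for each library and 1 row for each gene symbol. The submitters' processing notes list fastp (0.21.0), HISAT2 (2.1.0), StringTie (2.1.5), edgeR (4.2.1) and the build GRCm38 (mm10). Which program counted, with which annotation and strand setting, is not given there. Both mates of a read pair may have been counted, so counts divided by 2 were an alternative. Columns were matched to libraries by the samples' own descriptions.

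Genes were kept by filterByExpr, scaled by TMM, and fitted in edgeR 4.0.16 (R 4.3.3) with 1 mean per group over the 12 libraries (8 residual degrees of freedom). The quasi-likelihood test (glmQLFTest) was used, with Benjamini-Hochberg adjustment over all 15708 genes. The SE was obtained from the log2 ratio and its F statistic. The fit was first tested on simulated data. Marker levels, single and summed, are CPM of unscaled totals. Other scalings and filters, DESeq2 1.42.0, a replicate block, the 6 libraries of a comparison alone and leaving out each library were tried as well. Positions and exon lengths are from GENCODE M21, promoters from RefSeq.

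The members and lists were chosen with earlier results of these data known. Other genes are named by a rule, at most 6 rises and 6 falls per mutant, the largest among called genes that average a log2 CPM of at least 1 and whose libraries do not overlap, plus the ligands. A further gene of the rule is not reported here. Genes called in both mutants were added after their values were seen. Chi-square tests of counts between libraries of a group averaged 2.63 to 4.67 over genes, and 11.3 and 12.4 in the pairs with Ezh2b wild-type replicate 3, and no 2 libraries were identical. Each library was counted as a sample.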

Additional observations from a re-analysis of the deposited data

Results flagged for a closer look

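For 6 of the 9 genes the effects of the mutations differed when the difference itself was tested (Ezh2b log2 ratio minus Ezh2a log2 ratio, edgeR's quasi-likelihood test). Boc was at -0.67 (adjusted p = 3.95e-07), Gas1 at -0.80 (9.1e-05), Smo at -0.25 (0.00262), Ptch1 at -0.28 (0.0405), Gli3 at -0.18 (0.0485) and Gli2 at 0.28 (0.0212). The calls for Boc, Gas1 and Smo held in all 19 alternative runs. Those for Ptch1, Gli3 and Gli2 were lost in 10, 12 and 5 of these runs. Boc was called in opposite directions, Smo in the Ezh2a mutant alone, and Gas1, Ptch1, Gli3 and Gli2 in the Ezh2b mutant alone. For these last 4 genes the wild types of the sets also differed.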

How the results depend on the processing

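Every call of a member in either mutant kept its direction and its side of the threshold under each alternative run. Without single libraries, 3 to 6 members were called for the difference between effects. With DESeq2 the Ptch1 difference was not called (0.0601). Log2 ratios near 0 changed sign. With library totals in place of TMM, Sufu in Ezh2a was at 0.0401, Gli2 at 0.0237 and Gli3 at 0.0070, Ezh2 in Ezh2b at -0.0268, and the Sufu difference between effects at -0.0293. Sufu in Ezh2a was at 0.0011 with at least 1 CPM in 3 libraries, 0.0025 with halved counts and 0.0025 with 6 libraries. Without single libraries the lowest and highest were -0.0274 and 0.0854 for Ptch1, -0.0118 and 0.0124 for Sufu and -0.0536 and 0.0316 for Gli2 in Ezh2a, -0.0177 and 0.0441 for Ezh2 in Ezh2b, and -0.0656 and 0.0334 for Boc and -0.1912 and 0.1719 for Gli1 between the wild types. Over all genes, the same-numbered mutant and wild-type libraries of a set did not deviate together (correlations -0.0216 to 0.0220). A pairing that touches few genes would not show in these correlations. With a replicate block 3, 6, 5 and 5 members were called in Ezh2a, Ezh2b, the difference between effects and the wild types, and the call for the Ptch1 difference was lost (adjusted p = 0.0576), as were those for Mycn in Ezh2a (0.0596) and Dyrk2 in Ezh2b (0.0533). With it 19 other pathway genes were called in Ezh2a, against 21 without it, and 29 in Ezh2b, against 30. No other call of a member changed with this block. Without single libraries, 15 to 19 other pathway genes were called in Ezh2a and 21 to 31 in Ezh2b. Sufu between the wild types was called without Ezh2b wild-type replicate 2 alone (-0.14, adjusted p = 0.0242). The cause was not tested. Depth limits Hhip, Gli1, Mycn and the ligands, with few counts per library.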
